A study of Mus musculus with 24 samples.

Results

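Public TCRα clonotypes are T-cell receptor alpha chains that turn up in several individuals. Here they were the alpha clonotypes found in 4 or more of 12 mice, where a clonotype was a CDR3 amino acid sequence with its V and J segment, read in frame without a stop codon and backed by at least 5 counts in a tumor. They were chosen by their presence in the data. Of 21091 alpha clonotypes, 210 met the rule (0.996%), while 19192 were found in 1 mouse, 1358 in 2 mice and 331 in 3 mice. The 12 mice were female BALB/c animals that carried CT26.CL25 colon carcinoma cells under the skin of both flanks. In 3 time-matched mice (6, 12 and 14) both tumors were harvested on day 13. In 9 time-separated mice 1 tumor was excised and the other was harvested 11 days later: 3 of these were untreated (4, 17 and 19), 3 received decitabine (DAC) at 0.5 mg/kg (3, 11 and 20) and 3 received DAC at 2 mg/kg (7, 10 and 16), in each case after the surgery. Each tumor gave 1 alpha library from whole-tumor RNA, and the labels call the tumors 1 and 2 without saying which was taken first.

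The alpha chain is built by joining 1 of many V segments to 1 of many J segments. Enzymes trim the ends and terminal deoxynucleotidyl transferase adds untemplated bases between them, and the joined stretch becomes the CDR3 loop that contacts the peptide and its presenting molecule. A chain with few or no added bases can be made by many cells on independent occasions. Different base sequences can also encode the same residues, so that a protein sequence shared by mice need not be the same DNA. Invariant chains are a special case: natural killer T (NKT) cells, which recognize lipids on CD1d, use TRAV11 with TRAJ18, and mucosal-associated invariant T (MAIT) cells, which recognize vitamin B metabolites on MR1, use TRAV1 with TRAJ33.

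The retained counts ranged from 25996 to 841881 per library with a median of 156636, and the 3 time-matched mice held 2247 to 3045 clonotypes against 1003 to 2186 in the time-separated mice. Members made up 61 to 116 of the clonotypes of a mouse. In all, 5 members were found in all 12 mice, 5 more in 11, and 93 in only 4. In whole-tumor libraries fewer cells of a clonotype and less receptor RNA per cell cannot be told apart.

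The invariant chains are shown first, because their sequences show how the same protein was written in different mice. Bases that matched the V end or the J end of the CDR3 are in lower case, and inserted bases, those between both ends, are in capitals. The ends were read from the commonest base at each position among clonotypes of 1 mouse and non-functional sequences, and a read error or an allele inside an end also counts as inserted. An end stops where no base reaches 50%, so capitals can include bases of the segments themselves. In TRAV11/TRAJ18 the capitals GA before tagagg stood in every main sequence of its members, and they are not shown to be untemplated.
TRAV11/TRAJ18, main sequence in 11 mice: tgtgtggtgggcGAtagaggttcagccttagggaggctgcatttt
TRAV11/TRAJ18, main sequence in mouse 16: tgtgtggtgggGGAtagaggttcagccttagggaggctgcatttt
TRAV1/TRAJ33, main sequence in 10 mice: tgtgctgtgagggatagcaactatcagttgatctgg

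The TRAV11/TRAJ18 chain, the invariant alpha chain of NKT cells, was found in all 12 mice and in 23 of 24 tumors. Both sequences printed above were read in all 12 mice, the first as the larger in 11 of them. Its share of the retained counts ranged from 0.0171% in tumor 2 of mouse 10 to 1.71% in tumor 1 of mouse 19, with a median of 0.281% over the 23 tumors. It was not found at 5 or more counts in tumor 2 of mouse 19, the same mouse that held the highest share. The other TRAV11/TRAJ18 members, 2 in number, differed from it in the residue after the shared start CVV. The one with alanine there was found in 10 mice and reached 0.0534%, and the one with valine was found in 8 mice and reached 0.0309%.

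The TRAV1/TRAJ33 chain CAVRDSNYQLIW, which carries the segments of MAIT cells, was found in 10 mice and 13 tumors. All 10 mice held the sequence printed above, which has no inserted base, and no other encoding of it was found. Its highest share was 0.265%, in tumor 1 of mouse 19, and its median over the 13 tumors was 0.0251%. A chain of similar end, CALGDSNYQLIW with TRAV6-6 and the same TRAJ33, was found in 11 mice and was also made without an inserted base in 9 of them.

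A group of 14 members, found in 4 to 12 mice, joined TRAV7-2 to TRAJ40. All 14 had 14 residues, began with CAA and ended with NTGNYKYVF, and differed only at positions 4 and 5 of the CDR3. Position 4 was arginine in 6 members, lysine in 4 and serine in 4, and position 5 was most often isoleucine, leucine or valine (3 members each). Of the 5 members found in all 12 mice, 3 were of this pair: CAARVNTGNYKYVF, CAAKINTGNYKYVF and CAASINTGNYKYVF. In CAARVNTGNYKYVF the main sequence had 3 inserted bases in every mouse, all within these positions, and the sequences below show how the mice differed in them.
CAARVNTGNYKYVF, 11 mice: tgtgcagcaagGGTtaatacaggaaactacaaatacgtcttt
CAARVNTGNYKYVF, mouse 4: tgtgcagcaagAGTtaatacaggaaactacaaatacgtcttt
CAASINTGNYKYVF, 7 mice: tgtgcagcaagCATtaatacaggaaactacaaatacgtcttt
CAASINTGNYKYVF, 4 mice: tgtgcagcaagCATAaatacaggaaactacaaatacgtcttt
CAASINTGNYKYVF, mouse 7: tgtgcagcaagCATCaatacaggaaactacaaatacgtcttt
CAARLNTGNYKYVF, 5 mice: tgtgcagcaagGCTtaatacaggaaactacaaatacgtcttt
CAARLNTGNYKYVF, mouse 6: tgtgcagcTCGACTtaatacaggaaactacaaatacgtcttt
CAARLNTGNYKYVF, mouse 20: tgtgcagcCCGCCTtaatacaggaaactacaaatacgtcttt

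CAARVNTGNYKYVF was found in 23 of 24 tumors with 1 main encoding in 11 mice. Its share ran from 0.00926% in tumor 2 of mouse 12 to 0.808% in tumor 1 of mouse 10, with a median of 0.134%. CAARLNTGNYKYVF was found in 11 mice with 6 main encodings, and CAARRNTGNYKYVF in 10 mice with 7, the most of any member. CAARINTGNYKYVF and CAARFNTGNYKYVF were found in 11 mice each. None of the 14 was large: the highest share of any of them in a tumor was 0.945%, for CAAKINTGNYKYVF in tumor 1 of mouse 19.

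Summed over the pair, the 14 TRAV7-2/TRAJ40 members held 0.114% to 2.66% of a tumor, and every one of the 24 tumors contained some. This pair was set apart after its values were seen, so the following is a description without a test. In the time-matched mice both tumors held similar shares, with 2.12% and 1.93% for mouse 6, 0.118% and 0.127% for mouse 12, and 1.13% and 1.29% for mouse 14. In the 9 time-separated mice the tumor labelled 1 held the larger share in 8, with 0.637% to 2.66% in tumor 1 and 0.114% to 1.69% in tumor 2. The larger share exceeded the smaller by 1.05 to 14.4 times in the time-separated mice (median 8.22) and by 1.08 to 1.15 times in the time-matched mice. The exception in direction was mouse 7, with 1.62% and 1.69%, whose second tumor was the smallest library of the study. This direction was not particular to TRAV7-2/TRAJ40. Among the pairs of segments with 3 or more members, counted over the time-separated mice that held any, tumor 1 was also the higher for TRAV11/TRAJ18 in 8 of 9, TRAV7-2/TRAJ42 in 6 of 6, TRAV7-4/TRAJ22 in 7 of 8, TRAV6-6/TRAJ40 in 6 of 7 and TRAV19/TRAJ56 in 5 of 6. Apart from TRAV11/TRAJ18, the pairs just named were small. Their medians over the 9 time-separated mice were 0.0134% to 0.0481% in tumor 1 and 0% in tumor 2. Some of these directions rested on few counts, such as 8 against 0 for TRAV6-6/TRAJ40 in mouse 20 and for TRAV7-4/TRAJ22 in mouse 7. The 8 TRAV3-3/TRAJ13 members were higher in tumor 2 in all 7, from 0% and 0.183% in mouse 3 to 19.5% and 28.3% in mouse 10, and the remaining pairs were divided. For TRAV7-2/TRAJ40 tumor 1 was the higher in 3 of 3 untreated mice, 3 of 3 with DAC at 0.5 mg/kg and 2 of 3 with DAC at 2 mg/kg. Which of these tumors was harvested first is not given.

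The remaining member of all 12 mice was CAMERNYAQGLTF (TRAV13-1/TRAJ26), at 0.0081% to 0.438% in the 19 tumors that held it. It had 3 main encodings, which 6, 4 and 2 mice shared. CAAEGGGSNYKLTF (TRAV4-3/TRAJ53) was found in 11 mice with 4 main encodings and reached 0.644%. The 10 members found in 11 or 12 mice were small, and the highest share of any of them in a tumor was the 1.71% of the TRAV11/TRAJ18 chain.

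The members of highest mean share were of another kind, found in fewer mice and large in 1 or a few of them. They are shown because they carry most of the members' counts and because their encodings separate shared proteins from shared DNA.
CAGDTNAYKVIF, TRAV7-3/TRAJ30, mice 12, 14 and 19: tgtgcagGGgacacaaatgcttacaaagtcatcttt
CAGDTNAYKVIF, TRAV7-3/TRAJ30, mice 4 and 6: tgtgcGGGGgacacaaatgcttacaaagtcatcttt
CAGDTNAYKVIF, TRAV7-3/TRAJ30, mouse 17: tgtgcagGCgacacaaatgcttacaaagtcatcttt
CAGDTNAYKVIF, TRAV7-3/TRAJ30, mouse 11: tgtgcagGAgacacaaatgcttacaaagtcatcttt
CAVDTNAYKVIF, TRAV7-1/TRAJ30, mice 10, 11 and 14: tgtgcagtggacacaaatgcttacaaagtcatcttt
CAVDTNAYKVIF, TRAV7-1/TRAJ30, mice 4, 19 and 20: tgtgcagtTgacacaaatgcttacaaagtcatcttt
TRAV9D-4/TRAJ53, all 5 mice: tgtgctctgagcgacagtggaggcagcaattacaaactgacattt
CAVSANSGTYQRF, TRAV3-3/TRAJ13, all 10 mice: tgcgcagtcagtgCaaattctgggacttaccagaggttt
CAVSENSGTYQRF, TRAV3-3/TRAJ13, mice 6, 10 and 11: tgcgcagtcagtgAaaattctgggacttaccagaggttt
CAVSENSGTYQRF, TRAV3-3/TRAJ13, mouse 20: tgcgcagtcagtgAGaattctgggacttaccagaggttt
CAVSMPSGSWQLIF, TRAV7-3/TRAJ22, all 8 mice: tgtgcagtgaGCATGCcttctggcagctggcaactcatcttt

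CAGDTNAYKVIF with TRAV7-3 and TRAJ30 had the highest mean share of all members, 2.35% over the 24 tumors. In mouse 14 it was 22.2% of tumor 1 (95% Clopper-Pearson interval 22.0 to 22.3) and 18.5% of tumor 2 (18.3 to 18.6), intervals that cover counting error only. Mouse 17 had 3.18% and 4.74% of it in tumors 1 and 2, mouse 19 had 1.19% and 4.19%, mouse 4 had 1.49% and 0.0716%, and mouse 6 had 0.338% and 0.654%. In mice 11 and 12 it was found in 1 tumor each, at 0.0116% and 0.00154%. The same CDR3 was listed with TRAV7-1 in 8 mice, and there it was large in mouse 12 alone, at 8.45% and 8.57% of its tumors. In mice 4, 7, 10, 11 and 20 the TRAV7-1 chain had 7 to 66 counts. Its main sequence there was 1 base from that of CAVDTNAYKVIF, also with TRAV7-1, which had 1960 to 20076 counts. The TRAV7-3 and the TRAV7-1 chain of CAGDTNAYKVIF each had 4 main encodings. The main sequences of the TRAV7-3 chain in mice 14 and 17 were different DNA sequences of 1 protein CDR3.

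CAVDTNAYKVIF with TRAV7-1 and TRAJ30 was found in both tumors of all 8 mice that held it. The highest shares were those of mouse 11, 7.39% and 5.99%, followed by 3.53% and 2.64% for mouse 7, and the lowest were 0.0239% and 0.0478%, for mouse 14. The main sequence of mouse 11 had no inserted base, and that of mouse 7 had 1. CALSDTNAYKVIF, with the same J end on TRAV12-1, made up 8.07% and 7.25% of the tumors of mouse 17, 0.374% and 6.76% of those of mouse 19, and 1.82% and 6.31% of those of mouse 10. TRAJ30 was used by 32 of the 210 members, 11 of which met the rule without sequences 1 base from a far larger chain, and the 32 together ranged from 0.0314% to 24.3% of a tumor with a median of 3.25%.

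The TRAV9D-4/TRAJ53 member printed above, without an inserted base, was 15.4% and 18.05% of the tumors of mouse 16 and 1.39% and 1.61% of those of mouse 14. It was present in both tumors of the other 3 mice that held it, at 0.00979% to 1.1%, with the same main sequence. A member that joined TRAV9D-4 to TRAJ42 instead was 9.62% and 8.07% of the tumors of mouse 16. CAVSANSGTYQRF was found in 18 tumors of 10 mice with 1 main encoding throughout, which had 1 inserted base. It ranged from 0.0166% in tumor 2 of mouse 14 to 7.82% in tumor 2 of mouse 11, with a median of 0.712%. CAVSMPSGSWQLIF had 6 inserted bases and the same main sequence in all 8 mice that held it, with 11 to 5568 counts a mouse. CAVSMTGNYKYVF (TRAV9-3/TRAJ40), without an inserted base, had 1 main encoding in 5 mice and reached 3.17%, and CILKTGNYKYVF (TRAV21/DV12 with TRAJ40) had 1 in 4 mice and reached 0.872%. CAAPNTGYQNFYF (TRAV7-4/TRAJ49) had 4 main encodings in 8 mice and reached 5.11% in tumor 1 of mouse 11.

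**Figure D1:**
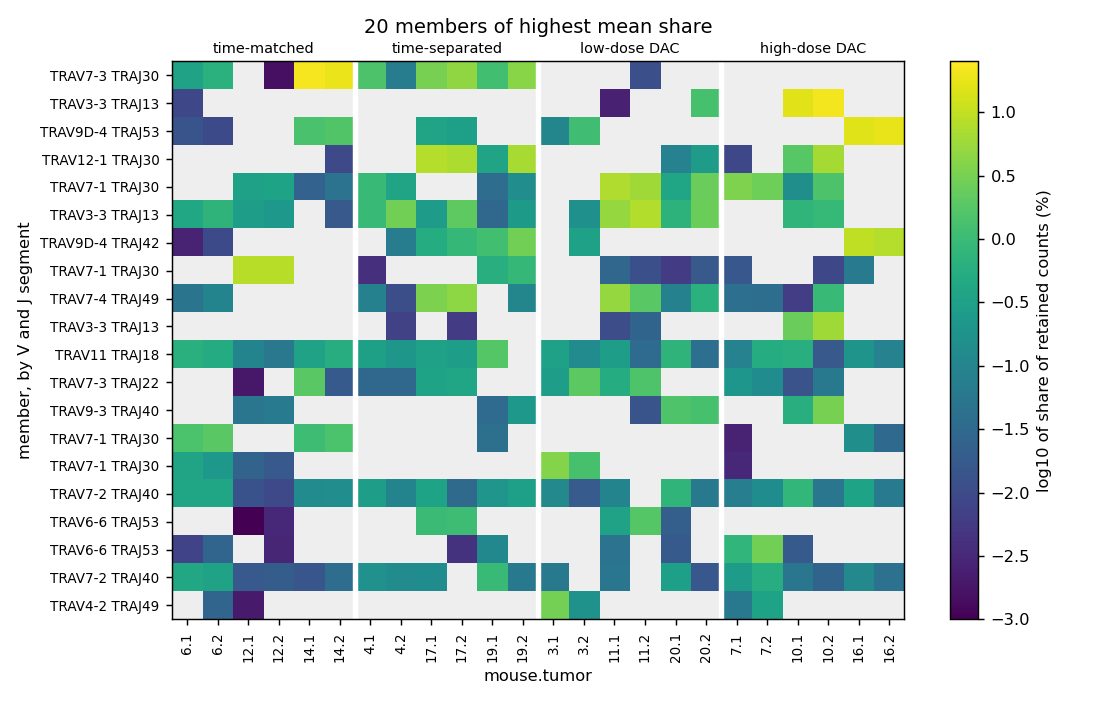
Share of the retained counts (log10 of percent, color) in each of the 24 tumors for the 20 members of highest mean share, labelled by V and J segment and ordered by mean share; grey marks fewer than 5 counts. The TRAV11/TRAJ18 and TRAV7-2/TRAJ40 rows are filled across the 4 groups at low shares, while the top rows reach 22.2% in 1 mouse and are empty in others.

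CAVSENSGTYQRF (TRAV3-3/TRAJ13) lay just inside the rule with 4 mice, and its sequence in 2 of them was 1 base from that of a far larger chain. It was 16.2% and 21.3% of the tumors of mouse 10 and 1.29% of tumor 2 of mouse 20. In mice 6 and 11 it had 20 and 5 counts, where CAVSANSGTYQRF, which differs from it at a single base, had over 100 times as many. The other large clonotype just inside, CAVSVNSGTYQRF, was at 6.02% in tumor 2 of mouse 10 and at 5 to 46 counts in the other 3 mice. In these 3 its main sequence was also 1 base from that of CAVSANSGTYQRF. Without such 1-base neighbours of far larger chains, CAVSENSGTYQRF was found in 2 mice and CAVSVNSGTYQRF in 1. Just outside the rule, in 3 mice, were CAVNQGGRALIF (TRAV3-3/TRAJ15), 25.8% of tumor 2 of mouse 3, and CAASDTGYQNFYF (TRAV7-4/TRAJ49), 15.0% of tumor 1 of mouse 4. Over all clonotypes on either side, the 93 found in 4 mice had a mean CDR3 length of 13.2 residues and 3.95 inserted bases, and the 331 found in 3 mice had 13.5 residues and 4.08 inserted bases, with medians of 33 and 35 counts in a mouse.

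Such neighbours were not rare. Of the 1151 detections of a member in a mouse, 122 were 1 base from a sequence of the same V and J with at least 100 times the counts in the same mouse, and 15 members were so in every mouse that held them. The same was true of 3545 clonotypes of 1 mouse (18.5%). They sat beside the largest chains: without them the TRAV7-1/TRAJ30 pair fell from 15 members to 3, TRAV7-3/TRAJ30 from 9 to 3 and TRAV3-3/TRAJ13 from 8 to 2, while TRAV7-2/TRAJ40 kept 13 of 14 and TRAV11/TRAJ18 all 3. Of the 15 TRAV7-1/TRAJ30 members, 3 did not begin with the conserved cysteine of a CDR3. In all, 178 of the 210 members met the rule without such neighbours. Whether these sequences were read errors or separate cells was not tested.

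Members had fewer inserted bases than clonotypes of 1 mouse. Averaged over the distinct clonotypes of each mouse, their main sequences had 3.29 ± 0.50 inserted bases (SD, n = 12 mice) against 6.30 ± 0.62, a difference of -3.01 ± 0.91 bases, lower for members in 12 of 12 mice (exact two-sided sign-flip permutation test over mice, p = 0.000488, the smallest this design allows). No inserted base was found in 21.4% ± 4.4 of the members of a mouse and in 5.79% ± 0.76 of its clonotypes of 1 mouse, higher for members in 12 of 12 mice (exact sign-flip p = 0.000488). Since the same members recur between mice, the differences of the 12 mice are not independent. With each member counted once, in the mouse where its mean share was highest, the difference was -3.21 ± 2.05 bases, lower for members in 11 of 12 mice (exact sign-flip p = 0.00146). With the 1-base neighbours left out it was 2.42 against 4.55 bases, again lower in 12 of 12 mice (exact sign-flip p = 0.000488). A total of 66 members (31.4%) had a main sequence without an inserted base in at least 1 mouse.

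**Figure D2:**
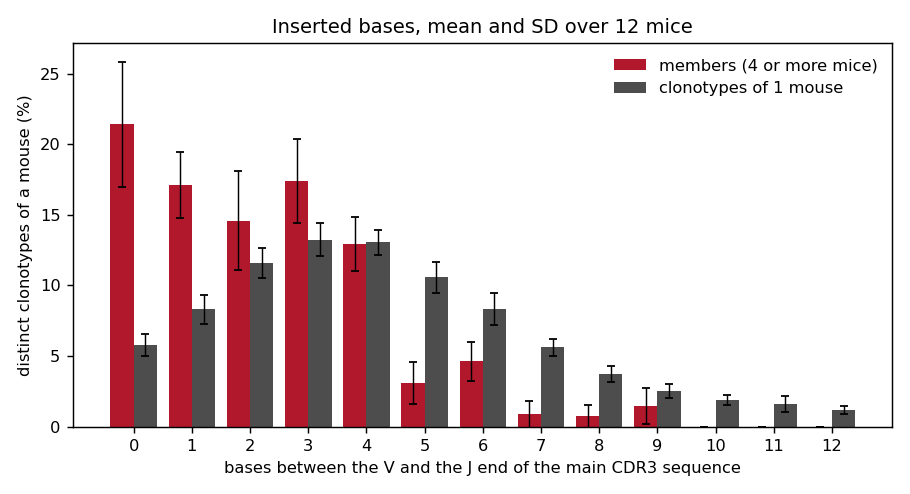
Percent of the distinct clonotypes of a mouse by number of inserted bases in the main CDR3 sequence, as mean (bars) and SD (error bars) over 12 mice, for members and for clonotypes of 1 mouse. Members peak at no inserted base (21.4%) and clonotypes of 1 mouse at 3 (13.2%), and 5 or more bases are found in 16.6% of members and 48.0% of clonotypes of 1 mouse, in part beyond the plotted range.

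CDR3 length differed little, and the difference did not hold under some of the other settings. Members had 13.5 ± 0.11 residues and clonotypes of 1 mouse 13.7 ± 0.10, a difference of -0.21 ± 0.18 residues with members shorter in 11 of 12 mice (exact sign-flip p = 0.00391). With the 1-base neighbours left out the difference was -0.055 ± 0.145 residues (exact sign-flip p = 0.21), and with all libraries thinned to 28000 counts members were longer by 0.085 ± 0.223 residues (exact sign-flip p = 0.216). It was also lost with a minimum count of 10 and with members found in 5 or more mice. Members remained shorter past the threshold with a minimum count of 2, with V segments merged to families, with low detections of a shared sequence left out, with each member counted once (exact sign-flip p = 0.0498) and without each mouse in turn (highest exact sign-flip p = 0.0312). Lengths of 13 and 14 residues made up 29.9% ± 5.5 and 35.4% ± 3.7 of the members of a mouse, and 25.5% ± 2.9 and 26.3% ± 2.8 of its clonotypes of 1 mouse. All 210 members had between 11 and 17 residues.

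The members used 38 V and 31 J segments in 123 combinations. Among V segments, TRAV6-6 was used by 21 members, TRAV7-2 by 20, TRAV7-4 by 18 and TRAV3-3 by 17. Among J segments, TRAJ30 was used by 32 members, TRAJ40 by 22 and TRAJ49 by 15. The order turned without the 1-base neighbours, where TRAJ40 led with 21 members, TRAJ49 had 13, TRAJ22 had 12 and TRAJ30 had 11, while TRAV7-1 went from 16 members to 4, TRAV3-3 from 17 to 11 and TRAV7-3 from 15 to 8. TRAV6-6 and TRAV7-2 then led the V segments with 21 and 19 members. Counted in every mouse that held a member, TRAJ40 was used by 14.5% ± 2.2 of the members of a mouse and 4.27% ± 1.34 of its clonotypes of 1 mouse, TRAV7-2 by 13.8% ± 2.7 and 2.35% ± 0.93, TRAV6-6 by 10.0% ± 2.8 and 5.09% ± 1.37, TRAJ30 by 13.5% ± 4.9 and 4.50% ± 2.44, and TRAJ18 by 6.12% ± 0.91 and 2.36% ± 0.73. Each of these 5 was higher among members in 12 of 12 mice. Without the neighbours TRAJ30 was used by 5.89% ± 3.02 and 3.37% ± 1.11, higher among members in 10 of 12 mice, and the other 4 were still higher in 12 of 12. At the other end, TRAV14-1 was used by 0.668% ± 0.746 and 4.24% ± 1.84, and TRAJ15 by 0.659% ± 0.496 and 3.83% ± 2.86, both lower in 12 of 12 mice.

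Of the 71 segments tested, 22 of 35 V segments (62.9%) and 27 of 36 J segments (75%) passed an adjusted p of 0.05 (exact sign-flip test over 12 mice, Benjamini-Hochberg over all 71), 14 higher among members and 35 lower. The count says little about single segments, because the same members recur between mice and because 7 of the segments passed with no member at all, which fixes the direction in every mouse. With each member counted once, 11 segments passed, all lower. Of these, 7 had no member and the other 4 (TRAV14-1, TRAV9-1, TRAJ15 and TRAJ17) had 1 or 2, so that nearly every mouse was at 0 for them and their direction was all but fixed by the counting. Nothing is read from these 11. No segment passed as higher among members when each was counted once: TRAJ30 was higher in 9 of 12 mice (adjusted p = 0.0636), TRAV7-2 in 8 (adjusted p = 0.0792) and TRAJ40 in 10 (adjusted p = 0.0835), all by exact sign-flip tests. The V name itself was uncertain for many members. The CDR3 base sequence of 69 members (32.9%) stood under another V name in at least 1 of the libraries that held it, so that reads of near-identical V copies could be split between names. The same held for 1270 clonotypes of 1 mouse (6.62%), which had fewer libraries in which to show it.

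**Figure D3:**
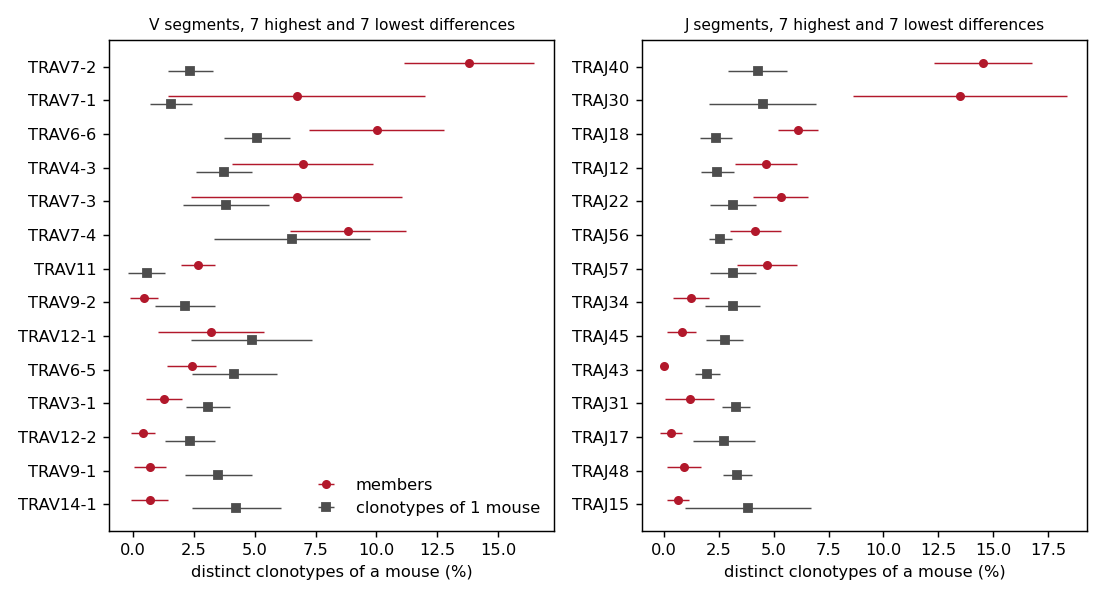
Use of the 7 V and the 7 J segments of highest difference and the 7 of lowest difference, as percent of the distinct clonotypes of a mouse (points, mean; lines, SD over 12 mice), for members and clonotypes of 1 mouse. TRAV7-2, TRAJ40 and TRAJ30 (all sequences, 1-base neighbours included) lie to the right among members, and TRAV14-1 and TRAJ15 near 0.

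The same protein was often written differently in different mice. Of the 210 members, 49 had the same main encoding in every mouse, 71 had 2, 62 had 3, 23 had 4 and 5 had 5 to 7. Over all pairs of mice that shared a member, 1540 of 3017 (51.0%) had the same main encoding. The share was 49.9% for clonotypes of 2 mice and 56.0% for clonotypes of 3. Among the members it was 58.3% for the 66 with a main sequence lacking inserted bases, 49.7% for the 97 whose fewest inserted bases were 1 to 3, and 45.4% for the 47 with 4 or more. It was 52.3% without the 1-base neighbours. These pairs share mice and members, so the shares are given without a test.

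More than 1 encoding was also common within a mouse. A second encoding with at least 10% of the clonotype's counts was found in 14.8% ± 4.2 of the members of a mouse (SD, n = 12 mice) and in 0.596% ± 0.223 of its clonotypes of 1 mouse, and the ranges of 8.20% to 22.1% and 0.128% to 0.967% did not overlap. This is a description, since a clonotype with several encodings had more ways to be found in 4 mice.

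RNA carried over from 1 library to another would bring the same base sequence at a low count. Of 941 detections of a member outside the mouse of its highest count, 501 (53.2%) had the main encoding of that mouse and 440 had another. Of the 501, 21 were at under 1% of that mouse's counts and 4 at under 0.1%, and of the 440, 32 were at under 1%. The median count was 19.5% of that of the top mouse for the same encoding and 18.2% for another. Leaving out detections whose sequence had over 1000 times the counts in another mouse left 209 of the 210 members, with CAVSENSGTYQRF as the one that was lost. Only 43 members had 1000 or more counts in a mouse, so for most members this filter could remove nothing. Whether carry-over took place was not tested.

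Together the 210 members held 6.01% to 42.3% of the retained counts of a tumor, with a median of 15.1%, although they were 3.77% to 8.97% of its clonotypes. In the time-matched mice the 6 tumors ranged from 8.60% to 33.4% with a median of 9.77%. The ranges were 6.01% to 26.4% (median 16.8%) in the untreated time-separated mice, 6.20% to 22.5% (13.9%) with DAC at 0.5 mg/kg and 8.95% to 42.3% (28.4%) with DAC at 2 mg/kg. The 4 groups overlapped. Much of each sum lay in a few members: without the 10 largest members of each tumor the rest held 0.33% to 6.43%, with a median of 2.46%. This remainder was larger in tumor 1 than in tumor 2 in all 9 time-separated mice, by 1.85 to 5.26 times (median 3.66), and in the 3 time-matched mice by 1.09 to 1.17 times. The clonotypes that were not members showed the same direction: without the 10 largest of each tumor they held more of tumor 1 in all 9 time-separated mice, by 1.03 to 2.76 times (median 1.79), and in the time-matched mice by 1.01 to 1.07 times. Tumor 1 of the 9 time-separated mice also had more clonotypes in every mouse (717 to 1928, against 312 to 1098 in tumor 2) and the larger library in 7. In the other 2, mice 10 and 19, where the library of tumor 2 was the larger, the remainder of the members was 4.92% and 0.953%, and 5.92% and 1.28%. Tumors 1 and 2 held 9.75% and 9.79% for mouse 12, 24.8% and 26.4% for mouse 17, and 29.2% and 27.5% for mouse 16, and the widest gap in points was that of mouse 10, with 30.6% and 42.3%. In the tumors of mouse 10, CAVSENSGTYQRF was 16.2% and 21.3% of the counts and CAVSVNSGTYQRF 2.53% and 6.02%. Without the 1-base neighbours they were found in 2 mice and 1 mouse, and so did not meet the rule. Most members were small, with 24 reaching 1% of a tumor and a median highest share of 0.105%.

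**Figure D4:**
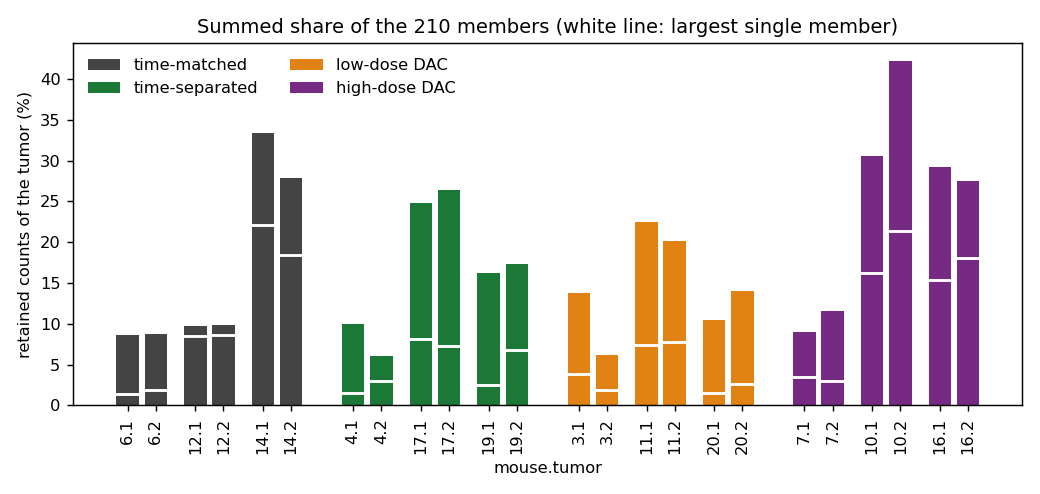
Summed share of the 210 members in the retained counts of each of the 24 tumors (bars, percent), by mouse and tumor number and colored by group; the white line is the share of the largest single member. Tumors of mice 10, 14 and 16 reach 27.5% to 42.3%, of which the largest member gives 15.4% to 22.2%. The largest member of mouse 10, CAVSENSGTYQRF, was found in only 2 mice without the 1-base neighbours.

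Members were more often found in both tumors of a mouse than clonotypes of 1 mouse. The share found in both was 37.5% ± 12.7 for members and 16.6% ± 8.1 for clonotypes of 1 mouse (SD, n = 12 mice), a difference of 20.8 ± 7.5 percentage points that was positive in 12 of 12 mice (exact two-sided sign-flip permutation test, p = 0.000488). By mouse, it was 50.5%, 51.0% and 58.3% of the members in time-matched mice 6, 12 and 14, where 26.0%, 30.8% and 26.6% of the clonotypes of 1 mouse were in both. In untreated time-separated mice 4, 17 and 19 it was 29.6%, 51.7% and 21.1% of the members. In mice 3, 11 and 20 (DAC at 0.5 mg/kg) it was 22.7%, 37.2% and 27.8%, and in mice 7, 10 and 16 (DAC at 2 mg/kg) 27.4%, 41.1% and 31.1%. With each member counted once, the share in both tumors was 53.6% for members and 16.6% for clonotypes of 1 mouse. That difference was 36.9 ± 20.6 points, positive in 12 of 12 mice (exact sign-flip p = 0.000488). This counting takes each member in the mouse of its highest mean share.

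A clonotype with more counts is more easily found in both tumors, and members had a median of 28 to 142 counts in a mouse against 16 to 27 for clonotypes of 1 mouse. Within ranges of counts, which still differ in counts inside a range, the difference was smaller. With 100 or more counts in the mouse, 72.9% ± 17.4 of the members and 60.3% ± 21.8 of the clonotypes of 1 mouse were in both tumors, a difference of 12.6 ± 12.1 points (9 of 12 mice, exact sign-flip p = 0.00586). With 20 to 99 counts it was 26.6% ± 20.3 and 17.6% ± 11.5, a difference of 8.99 ± 14.0 points (10 of 12 mice, exact sign-flip p = 0.0415). With 5 to 19 counts it was 4.64% ± 5.12 and 5.83% ± 4.06, and the difference had the other sign, at -1.19 ± 6.80 points (exact sign-flip p = 0.56). The rule accepted a mouse when either tumor held the clonotype, so presence in both tumors and membership are not wholly separate measures.

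Persistence was higher where both tumors were taken at the same time. Members were in both tumors for 53.3% ± 4.4 in the 3 time-matched mice and 32.2% ± 9.7 in the 9 time-separated mice (exact two-sided permutation test, p = 0.0136). Against the 3 untreated time-separated mice alone (34.1% ± 15.8), a design that cannot go below 0.1, p was 0.3. Clonotypes of 1 mouse moved the same way, with 27.8% ± 2.6 and 12.9% ± 5.2 (exact permutation p = 0.00455, the smallest for 3 against 9 mice). The gap between members and clonotypes of 1 mouse was 25.5 ± 5.9 points in time-matched and 19.3 ± 7.6 in time-separated mice (exact permutation p = 0.232). The time-matched libraries held 173641 to 841881 retained counts and the time-separated ones 25996 to 234032, and with all libraries thinned to 28000 counts the difference in members was 29.7 points (exact permutation p = 0.00455). Thinning left 72 members, so this value is for a smaller set than the 53.3% and 32.2%.

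**Figure D5:**
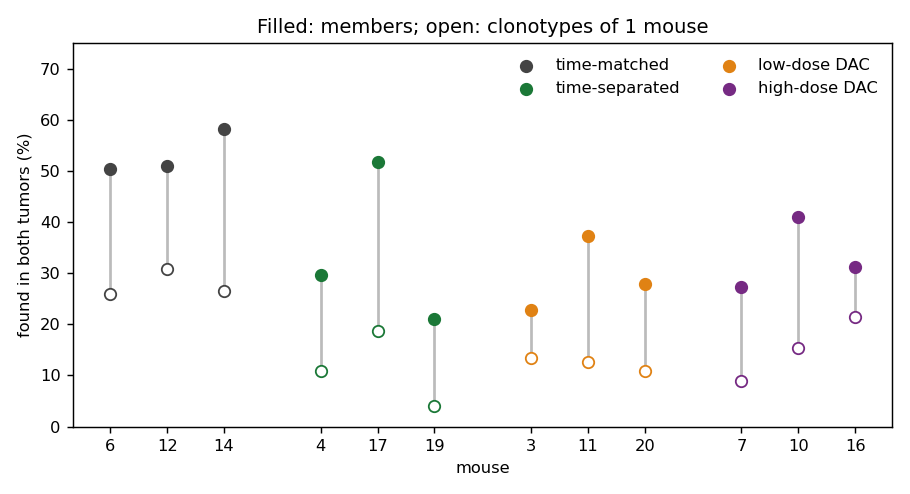
Percent of the distinct clonotypes of each of 12 mice that were found in both of its tumors, for members (filled) and clonotypes of 1 mouse (open), joined by a line and colored by group. The filled point is above the open one in every mouse, and the 3 time-matched mice lie at 50.5% to 58.3%.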

How the data were processed

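Alpha-chain repertoires of 24 tumors were taken from deposited tables of counts per receptor sequence, which the authors made from SMART-Seq TCR libraries with unique molecular identifiers (UMIs), using the Cogent NGS Immune Profiler 2.0. No normalization had been applied, and whether reads of 1 UMI were merged before counting is not given in the sources used here. Sequences with a stop or frame mark or fewer than 5 counts in a library were left out, and shares are percent of the retained counts. The members, lists and tests were chosen with earlier results of these data known.

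The ends of each V and J segment were read as the commonest base at each position (50% or more of at least 10 sequences). Tests used 1 value per mouse, as exact sign-flip tests within mice and exact permutation tests between groups. Segments used by 1% or more of the distinct clonotypes of either class were tested, with Benjamini-Hochberg adjustment. Clonotypes named were the 10 of most mice, the 10 of highest mean share, the 5 with most encodings, the 5 largest with 1 main encoding, the 3 largest without inserted bases, the invariant chains and the 2 largest on either side of the minimum of 4 mice; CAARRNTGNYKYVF was added after its values were seen. The filter on 1-base neighbours was also chosen after the data were seen. CDR3s over 14 residues are given by their bases. Alternatives changed the minimum count, the depth, the minimum of mice, the V names, the clonotype definition and the set of mice. Beta-chain tables were not used here, and no coordinates are given, since the tables name no build. The computations were tested on simulated data, with Python 3.11.15, numpy 2.4.6, pandas 2.3.3, scipy 1.17.1 and matplotlib 3.10.9.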

Additional observations from a re-analysis of the deposited data

How the results depend on the processing

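The fewer inserted bases of members and their more frequent presence in both tumors kept their direction and their side of the threshold under every alternative run, other than persistence among clonotypes of 5 to 19 counts, where the difference was -1.19 points. The CDR3 length difference was lost with a minimum count of 10 (-0.035 residues), with members found in 5 or more mice (-0.11) and with 1-base neighbours left out (-0.055, and -0.20 with each member also counted once), and it turned to 0.085 with libraries thinned to the smallest. The cause was not tested. The member count was 365 with a minimum count of 2, 72 after thinning, 541 for 3 or more, 117 for 5 or more and 68 for 6 or more mice, and 135 where the clonotype was a nucleotide sequence. V calls were 11 with V segments merged to families, which left fewer to test, and 3 with each member counted once (2 without the neighbours), and J calls 8 counted once (9 without the neighbours). Testing persistence with members of the other 11 mice equals the choice of 5 or more mice, at 26.0 points. Leaving out each mouse in turn gave 168 to 193 members, 19 to 26 V and 24 to 28 J calls, length differences of -0.24 to -0.15, inserted bases of -3.29 to -2.79, persistence of 20.2 to 22.6 points, group differences of 18.8 to 24.2 points and mean member shares of 15.4% to 18.5%. Of 26 named members, 22 stayed in 4 or more mice under every alternative run on them; the other 4 were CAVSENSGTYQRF, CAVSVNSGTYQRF, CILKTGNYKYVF and the valine TRAV11/TRAJ18 chain. The tests within mice pair both classes by mouse, and no pairing of mice between groups was made because the groups share no replicate numbers. Depth limits small members: thinning to 28000 counts a library left 72 of 210. No library stood far from the other 5 of its group in member number or share.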
